A study of Mus musculus with 2 samples.

Results

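A set of 8 genes, grouped as tissue retention and egress genes, is followed here across the single-cell RNA sequencing (scRNA-seq) libraries of lupus-prone mouse kidneys. The libraries hold transcripts, and movement of cells was not measured by them. The genes are *Cd69*, *Rgs1*, *Rgs2*, *Klf2*, *S1pr1*, *S1pr4*, *S1pr5* and *Klrg1*. They were chosen by name, 8 of the 31053 genes in the count matrices, and all 8 were present in both libraries. Of the 2 libraries, 1 was made from pooled kidneys of young and 1 from pooled kidneys of old mice, both of the genotype MRL-*lpr*, which carries the *lpr* mutation of the death receptor gene *Fas* and develops a lupus-like nephritis with age. The labels call the mice young or old, and the study's methods give an age range in weeks for each. The methods describe the young as controls or mildly diseased and the old as severely diseased, and the study reports young mice as unaffected. Both groups share the mutation, so no mouse without it was compared in these libraries. Leukocytes were enriched on a density gradient and then for innate lymphoid cells (ILCs) with a magnetic kit, and live cells were sorted and loaded on 10x Chromium 3′ v3.1 chips. The study asked how group 2 ILCs (ILC2s), tissue-resident lymphocytes that make type 2 cytokines, are held in the kidney and lost from it. With 1 library per age, no replicate checks any difference below, no p-value can be given, and all intervals are exact 95% intervals that cover counting error only.

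Lymphocytes leave tissues along a gradient of sphingosine-1-phosphate (S1P), a lipid that is abundant in blood and lymph and scarce inside tissues, and S1PR1 is the receptor that most T and B cells use to follow it. CD69, a surface protein of activated and resident lymphocytes, binds S1PR1 and draws it inside the cell, while KLF2, a transcription factor of quiescent circulating cells, drives *S1pr1* transcription. S1PR5 does the corresponding work in NK cells, and S1PR4 is a receptor of most leukocytes with a smaller part in egress. RGS1 and RGS2 shorten the signal of G proteins. KLRG1 is an inhibitory receptor for cadherins on effector lymphocytes and some ILC2s.

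Cells were assigned to 6 classes by marker transcripts, without clustering. T cells had at least 2 unique molecular identifiers (UMIs, the counted transcripts) of *Cd3d*, *Cd3e* or *Cd3g*. They were split by *Cd4* and by *Cd8a* or *Cd8b1*. Those with neither coreceptor and no *Trdc* were called double-negative (DN) T cells, the T cell population that the *Fas* mutation is known to expand. ILC2s had no CD3 UMI and UMIs of 2 or more among *Il2ra*, *Il1rl1*, *Gata3* and *Il17rb*, NK cells at least 2 of *Ncr1*, *Klrb1c* and *Klre1* (a gate that would also take ILC1s), and B cells at least 2 of B cell genes such as *Cd79a*, *Cd79b* and *Ms4a1*. The young library gave 1331 ILC2s, 118 CD4, 174 CD8 and 363 DN T cells, 146 NK cells and 351 B cells. The old library gave 302, 1145, 1152, 1601, 191 and 153. Median depth was between 3813 and 5118 UMIs in the young and between 3861 and 6125 UMIs in the old classes. Levels are in CPM: all UMIs of a gene in a class, scaled to 1000000 UMIs of the class. Since the ILC enrichment set how many cells of each kind were loaded, the numbers of cells are not frequencies in the kidney.

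The names were checked against markers that the gates did not use, and 1 of them held poorly. *Rora* (1418 CPM in young and 1493 CPM in old) and *Areg* (1207 and 1965 CPM) marked the ILC2 gate, *Gzma* (8457 and 15308 CPM) the NK gate and *Pax5* (434 and 309 CPM) the B gate. Of the young DN T cells, only 137 (37.7%) had a UMI of the T cell receptor gene *Trac*, against 1372 (85.7%) of the old DN T cells. Among CD4 T cells the shares were 92.4% and 94.6%. The young DN gate also held 870 CPM of *Rora* and 380 CPM of *Areg*, against 77 and 35 CPM in the old one. The main DN values are therefore also given for the DN T cells with a *Trac* UMI, a selection made after the data were seen. Those cells had *Cd40lg*, a gene of CD4 T cells, at 102 CPM in young and 32.1 CPM in old. The CD4 gate had 104 and 120 CPM of it. *Foxp3* was at 39.1 and 18.1 CPM, against 54.3 and 28.6 CPM in the CD4 gate. How many of these cells were CD4 T cells with a missed *Cd4* transcript was not tested. The orders of classes below use the whole DN gate, and places that change with *Trac* are named. The young CD8 gate had 156 CPM of *Trdc*, a gene of γδ T cells, against 14 CPM in the old. The study used female mice unless stated, but Y-linked transcripts without *Xist* were present in 50.8% of young and 40.6% of old cells and *Xist* without Y-linked transcripts in 14.6% and 29.1%, so each pool held cells of both sexes. These shares differed between the libraries. In ratios of old over young, age and sex mix therefore cannot be told apart unless a split by the sex genes is named. The libraries shared 26 barcodes among the cells kept. Proximal tubule (PT) cells served as background, except for *Klf2*, of which 27.0% of young PT cells had a UMI.

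**Figure D1:**
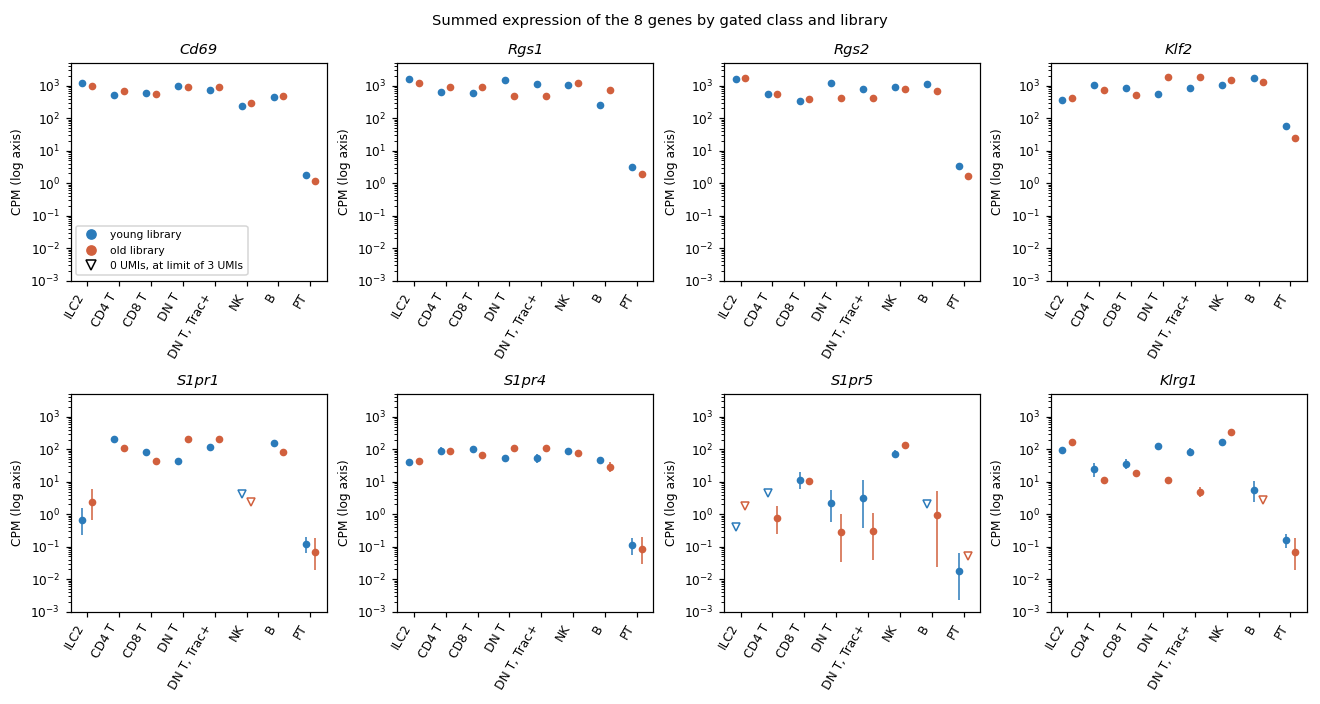
Summed expression of the 8 genes in CPM on a logarithmic axis, 1 panel per gene, in the 6 gated classes, the DN T cells with a *Trac* UMI and PT cells, with young in blue and old in orange. Bars are exact Poisson 95% intervals, often smaller than the points, and open triangles mark sums of 0 UMIs at the limit of 3 UMIs. *Cd69* and *Rgs2* peaked in ILC2s, where *S1pr1* was at 0.685 and 2.39 CPM and *S1pr5* had no UMI.

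*Cd69* (ENSMUSG00000030156; chromosome 6, 129267325 to 129275436, minus strand, GRCm38) was highest in ILC2s in both libraries. It had 1242 (1216 to 1268) CPM in young ILC2s. In the other young classes it had 998 (953 to 1044) CPM in DN T cells, 606 (559 to 656) CPM in CD8 T cells, 514 (461 to 572) CPM in CD4 T cells, 448 (415 to 484) CPM in B cells and 230 (196 to 269) CPM in NK cells. In the old library it had 1016 (968 to 1065) CPM in ILC2s, 900 (878 to 922) CPM in DN T cells, 673 (653 to 693) CPM in CD4 T cells, 548 (533 to 565) CPM in CD8 T cells, 468 (428 to 511) CPM in B cells and 288 (259 to 320) CPM in NK cells. Each neighbour in these orders differed from the next beyond counting error, and CD4 and CD8 T cells changed places between the libraries. DN T cells with a *Trac* UMI had 731 (666 to 800) CPM in young and 891 (868 to 915) CPM in old. PT cells had 1.74 and 1.16 CPM.

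The transcript was spread over most ILC2s. A *Cd69* UMI was found in 1156 of 1331 young ILC2s (86.9%) and in 243 of 302 old ILC2s (80.5%), with a median of 4 and 3 UMIs per cell. After each cell was thinned to 1000 UMIs, the shares were 57.0% (54.3 to 59.7%) in young and 48.1% (42.3 to 54.0%) in old ILC2s, 40.7% (31.7 to 50.1%) and 42.7% (39.8 to 45.6%) in CD4 T cells, and 0.284% and 0.192% in PT cells. Between the libraries, *Cd69* in ILC2s differed by a log2 ratio of -0.29 (-0.37 to -0.21) and in CD4 T cells by 0.39 (0.23 to 0.55), both well short of 2-fold. Within a library, ILC2s exceeded CD4 T cells by a log2 ratio of 1.27 (1.12 to 1.43) in young and 0.59 (0.51 to 0.67) in old. The sexes gave other values: among ILC2s with *Xist* and no Y-linked UMI the log2 ratio of old over young was 0.060, and among those with Y-linked UMIs and no *Xist* it was -0.37.

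*Rgs1* (ENSMUSG00000026358; chromosome 1, 144242296 to 144249242, minus strand) and *Rgs2* (ENSMUSG00000026360; chromosome 1, 143999338 to 144004161, minus strand) lie near each other and encode regulators that speed the return of G proteins to rest. *Rgs2* had its highest level in ILC2s, with 1671 (1641 to 1701) CPM in young and 1694 (1632 to 1758) CPM in old, a log2 ratio of 0.020 (-0.040 to 0.079). The next class of the young library was DN T cells with 1208 (1158 to 1259) CPM, which did not differ from B cells at 1173 (1118 to 1230) CPM beyond counting error, and that of the old library was NK cells with 786 (737 to 837) CPM. With a *Trac* UMI the young DN T cells had 803 (735 to 875) CPM, below B cells and NK cells, the latter at 946 (876 to 1020) CPM. CD4 T cells had 559 (504 to 619) and 543 (526 to 561) CPM of *Rgs2* and CD8 T cells 340 (305 to 378) and 404 (391 to 418) CPM. ILC2s thus exceeded CD4 T cells by 1.58 (1.43 to 1.73) in young and 1.64 (1.57 to 1.71) in old on the log2 scale, close to 3-fold each time.

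*Rgs1* stood at 1559 (1530 to 1588) CPM in young ILC2s and did not differ there from the DN gate at 1551 (1495 to 1609) CPM beyond counting error, although the DN T cells with *Trac* were lower, at 1120 (1040 to 1205) CPM. In the old library it stood at 1190 (1139 to 1244) CPM in ILC2s and 1248 (1186 to 1312) CPM in NK cells, again a pair that counting error did not separate. CD4 T cells had 627 (568 to 690.5) CPM in young and 893 (870 to 916) CPM in old, and CD8 T cells had 596 (550 to 645) and 887 (867 to 907) CPM. The gap of ILC2s over CD4 T cells was 1.31 (1.17 to 1.46) on the log2 scale in young and 0.41 (0.34 to 0.49) in old. B cells had the lowest level of the young library, 264 (238 to 292) CPM, and 746 (695 to 799.5) CPM in the old one, a log2 ratio of 1.498 (1.32 to 1.68). That was the 1 of 6 genes measured in B cells that passed 2-fold upward, where 3.15% of 5549 genes did, and none passed downward, where 4.38% did. In old B cells 67.6% of the *Rgs1* UMIs came from the tenth of cells with most of them, and 1 cell held 84 UMIs.

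*S1pr1* (ENSMUSG00000045092; chromosome 3, 115710433 to 115715072, minus strand) was almost absent from ILC2s. The 1331 young ILC2s held 5 *S1pr1* UMIs in 4 cells, 0.685 (0.222 to 1.60) CPM, and the 302 old ILC2s held 4 UMIs in 4 cells, 2.39 (0.651 to 6.12) CPM. In the young library the gene had 204 (171 to 241) CPM in CD4 T cells, 160 (140 to 182) CPM in B cells, 80.1 (63.7 to 99.5) CPM in CD8 T cells and 44.7 (35.6 to 55.5) CPM in DN T cells. Young DN T cells with *Trac* had 120 (94.9 to 150) CPM, a higher value than that of CD8 T cells. In the old library it had 209 (199 to 220) CPM in DN T cells, 111 (103 to 119) CPM in CD4 T cells, 81.8 (65.5 to 101) CPM in B cells and 42.6 (38.3 to 47.3) CPM in CD8 T cells. The NK gate had no UMI in 146 young and 191 old cells, where 3 UMIs would be 4.24 and 2.44 CPM. All neighbours in both orders were apart beyond counting error, except ILC2s and NK cells at the bottom. Endothelial cells, which use the receptor for their junctions, had 236 (211 to 262) CPM in young and 261 (176 to 372) CPM in old, and PT cells 0.119 and 0.070 CPM.

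Relative to CD4 T cells, *S1pr1* in ILC2s was lower by a log2 ratio of -8.22 (-9.86 to -6.96) in young and -5.54 (-7.42 to -4.17) in old. The old-over-young ratio within ILC2s rested on 4 and 5 UMIs and was 1.80 (-0.53 to 4.02), so no difference between the libraries was detectable at this depth. After thinning to 1000 UMIs, 14.4% (8.62 to 22.1%) of young and 8.89% (7.30 to 10.7%) of old CD4 T cells had an *S1pr1* UMI, against 0 of the young ILC2s (upper limit 0.280%) and 0.673% (0.0817 to 2.41%) of the old ones.

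*S1pr4* (ENSMUSG00000044199; chromosome 10, 81497747 to 81500132, minus strand) was the most even of the receptors and the one S1P receptor among the 8 genes with a clear level in ILC2s. It had 40.5 (36.05 to 45.4) CPM in young and 44.2 (34.7 to 55.5) CPM in old ILC2s, with UMIs in 18.0% and 18.5% of cells, against 0.199% and 0.159% of PT cells. CD4 T cells had 89.0 (67.7 to 115) and 86.0 (79.1 to 93.3) CPM, CD8 T cells 103 (83.9 to 124) and 68.9 (63.3 to 74.8) CPM, and NK cells 87.7 (67.2 to 112) and 78.8 (63.9 to 96.1) CPM. B cells had 45.7 (35.4 to 58.2) and 29.2 (19.8 to 41.4) CPM. Many neighbours in the order of *S1pr4* could not be separated: in the young library neither the neighbours among CD8, CD4 and NK cells nor those among DN T cells, B cells and ILC2s were apart, and in the old library neither those among CD4, NK and CD8 cells nor ILC2s and B cells. ILC2s stood below CD4 T cells by -1.13 (-1.54 to -0.71) in young and -0.96 (-1.33 to -0.61) in old on the log2 scale.

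*S1pr5* (ENSMUSG00000045087; chromosome 9, 21242912 to 21248443, minus strand) was a gene of the NK gate. NK cells had 73.5 (54.9 to 96.4) CPM in young and 134 (114 to 156) CPM in old, a log2 ratio of 0.87 (0.41 to 1.34). The share of NK cells with a UMI was 23.3% and 48.7%, or 6.90% (3.36 to 12.3%) and 11.7% (7.48 to 17.2%) after thinning to 1000 UMIs. With all 3 gate genes asked of NK cells the log2 ratio was 0.20. CD8 T cells had 11.7 (6.06 to 20.5) and 10.6 (8.50 to 13.1) CPM, and macrophages or monocytes had 15.3 and 18.9 CPM. None of 1331 young and 302 old ILC2s had a UMI, for which 3 UMIs would be 0.411 and 1.79 CPM. The gene overlaps *Gm48303* on the opposite strand, so reads could be shared where strand is not used.

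The 250 bases before the RefSeq start of *S1pr5* (GRCm38.p6) are shown because KLF factors, to which KLF2 belongs, bind CCACCC-like elements, and the capitals mark CCACCC on either strand. The motif occurs 2 times here and at least once in 28.1% of the 32851 promoter windows of the same length. Such a match is a description and says nothing on binding.
S1pr5 promoter, chr9:21248444-21248693, minus strand: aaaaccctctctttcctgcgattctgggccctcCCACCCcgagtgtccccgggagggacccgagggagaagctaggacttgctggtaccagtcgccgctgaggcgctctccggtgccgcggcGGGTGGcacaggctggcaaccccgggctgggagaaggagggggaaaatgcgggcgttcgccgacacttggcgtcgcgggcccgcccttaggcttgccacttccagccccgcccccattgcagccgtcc

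*Klf2* (ENSMUSG00000055148; chromosome 8, 72319033 to 72321656, plus strand) was lowest in ILC2s in both libraries. ILC2s had 365 (352 to 380) CPM in young and 412 (382 to 444) CPM in old. The other young classes followed with 553 (520 to 588) CPM in DN T cells, 863 (807 to 922) CPM in CD8 T cells, 1022 (947 to 1102) CPM in CD4 T cells, 1052 (978 to 1130) CPM in NK cells and 1704 (1637 to 1773) CPM in B cells, of which only CD4 T cells and NK cells were not apart. Young DN T cells with *Trac* had 847 (777 to 921) CPM, next to CD8 T cells. In the old library CD8 T cells had 514 (499 to 530) CPM, CD4 T cells 739 (719 to 760) CPM, B cells 1329 (1260 to 1400) CPM, NK cells 1494 (1426 to 1564) CPM and DN T cells 1830 (1798 to 1861) CPM, all apart. A *Klf2* UMI was present in 52.6% of young and 54.6% of old ILC2s, or 23.7% and 24.2% at 1000 UMIs, where PT cells had 4.81% and 2.11%. ILC2s stood below CD4 T cells by -1.48 (-1.61 to -1.36) in young and -0.84 (-0.96 to -0.73) in old on the log2 scale. Thus *Klf2* transcripts were reduced in ILC2s relative to CD4 T cells but present, and *S1pr1* transcripts were at a few UMIs.

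The *Klf2* promoter is shown because *Klf2* is the transcription factor gene among the 8, and the capitals mark 3 motifs searched on both strands: CTANNNNTAG of MEF2 factors, which are known to drive *Klf2* (in 3.2% of windows), TGACG, part of cyclic AMP response elements (17.8%), and CCACCC (28.1%). Each occurs 1 time, and none overlaps another.
Klf2 promoter, chr8:72318812-72319061, plus strand: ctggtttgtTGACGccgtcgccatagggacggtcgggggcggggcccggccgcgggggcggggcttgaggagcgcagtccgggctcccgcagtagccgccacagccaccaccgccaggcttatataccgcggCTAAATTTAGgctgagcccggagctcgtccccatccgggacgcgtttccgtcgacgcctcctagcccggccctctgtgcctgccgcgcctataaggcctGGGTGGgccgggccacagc

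*Klrg1* (ENSMUSG00000030114; chromosome 6, 122270596 to 122282882, minus strand) was higher in NK cells and ILC2s than in CD4, CD8 and B cells in both libraries. The young DN gate stood between NK cells and ILC2s, at 127 (111 to 144) CPM, and the old one had 11.1 (8.75 to 13.8) CPM. DN T cells with a *Trac* UMI had 81.2 (60.7 to 107) CPM in young, on 52 UMIs in 14 of 137 cells, a lower value than that of ILC2s. In old they had 4.84 (3.29 to 6.86) CPM. NK cells had 171 (142 to 204) CPM in young and 333 (302 to 367) CPM in old. The log2 ratio was 0.96 (0.66 to 1.27). ILC2s had 95.4 (88.5 to 103) and 167 (148 to 188) CPM, a log2 ratio of 0.81 (0.60 to 1.01), and UMIs in 30.5% and 41.7% of cells. CD4 T cells had 24.1 (13.8 to 39.2) and 11.03 (8.66 to 13.8) CPM and CD8 T cells 36.2 (25.5 to 49.8) and 18.1 (15.3 to 21.2) CPM, log2 ratios of -1.13 (-1.92 to -0.25) and -1.001 (-1.53 to -0.44). These were the only members past 2-fold in CD4 T cells, 1 of 7 measured against 2.43% of 8587 genes lower and 7.86% higher by that much. In CD8 T cells it was 1 of 8, against 2.44% of 8911 genes lower and 6.05% higher. The CD4 value rested on 16 young UMIs in 5 cells and was -0.19 among cells with at least 4000 UMIs. In ILC2s *Klrg1* also followed the sex genes. Cells with *Xist* only had 63.8 (52.8 to 76.5) CPM in young and 61.9 CPM (27 UMIs) in old. Cells with Y-linked genes only had 110 and 198 CPM, so the log2 ratio between them was -0.79 (-1.10 to -0.49) and -1.68 (-2.32 to -1.09). *Klf2* was lower by the same split in both libraries, with log2 ratios of -0.67 (-0.82 to -0.52) and -0.66 (-0.97 to -0.37).

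ILC2s were then set against CD4 T cells for all 8 genes. In the young library *Cd69*, *Rgs1*, *Rgs2* and *Klrg1* were at least 2-fold higher in ILC2s and *S1pr1*, *S1pr4* and *Klf2* at least 2-fold lower, 7 of the 7 genes with 50 UMIs over both sums. Among all 8916 genes so measured 14.8% were higher and 5.7% lower by that much, with a sum of 0 UMIs counted as 3. In the old library *Rgs2* and *Klrg1* were past 2-fold upward and *S1pr1* downward, against 8.51% and 11% of 8997 genes, while *Cd69*, *Rgs1*, *S1pr4* and *Klf2* kept their sign within 2-fold. *Klrg1* had the widest gap upward, 1.98 (1.27 to 2.80) in young and 3.92 (3.55 to 4.31) in old. The sum of the immediate early and heat shock list, 12 genes among them *Fos* and *Jun*, was also far higher in ILC2s. It was at 25263 summed CPM in young and 26363 in old against 5999 and 7659 in CD4 T cells. The heat shock genes *Hspa1a*, *Hspa1b* and *Dnajb1* were lower in ILC2s in both libraries. *Hspa1a* had 9.45 against 24.1 CPM in young and 2.99 against 161 CPM in old. The part of the list in the levels of *Cd69*, *Rgs1*, *Rgs2* and *Klf2* was not tested.

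**Figure D2:**
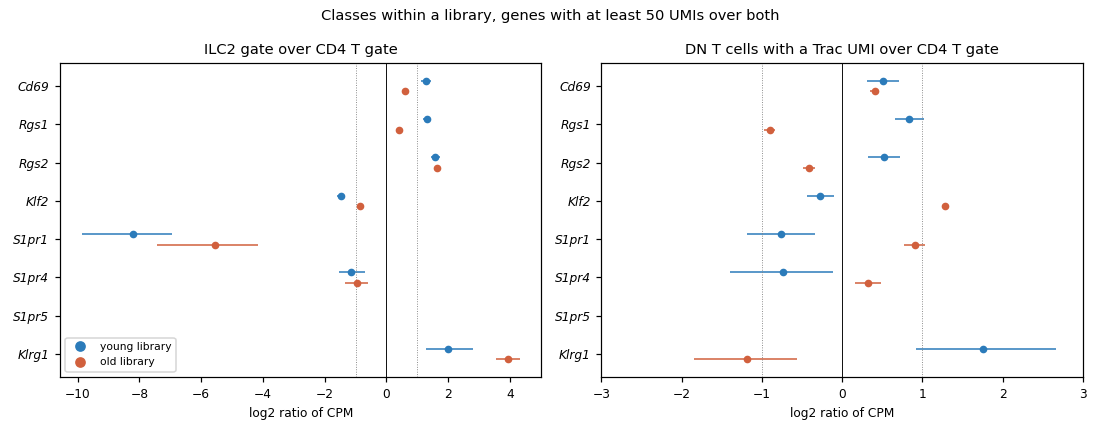
Log2 ratio of CPM over CD4 T cells for ILC2s (left) and for DN T cells with a *Trac* UMI (right), young in blue and old in orange, with exact binomial 95% intervals and dotted lines at 2-fold. ILC2 points lay on the same side of 0 in both libraries, whereas *Rgs1*, *Rgs2*, *Klf2*, *S1pr1*, *S1pr4* and *Klrg1* of the DN T cells lay on opposite sides.

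Of the companion lists, recirculation genes were mostly lower in ILC2s than in CD4 T cells and residency genes were mixed. Of 9 recirculation genes, 8 were measured in the young comparison of ILC2s with CD4 T cells and 6 were at least 2-fold lower, none higher, with a median log2 ratio of -4.39 against 0.14 over all genes. In the old comparison 8 of 9 were lower and none higher, with a median of -2.54 against -0.021. *Ccr7*, the chemokine receptor for lymphoid tissue, had 2.33 and 425 CPM in young and 3.59 and 69.3 CPM in old, *Tcf7*, a factor of naive and memory T cells, had 7.53 and 311 CPM in young, and *Ly6c2* had 3.59 and 113 CPM in old. Of 13 residency genes, 10 were measured in young, 2 higher and 3 lower, and 12 in old, 2 higher and 4 lower, with medians of 0.12 and 0.11. Over all genes 14.8% were at least 2-fold higher and 5.7% lower in young ILC2s, and 8.51% and 11% in old ones. *Bhlhe40* (984 against 258 CPM) and the chemokine receptor gene *Cxcr6* (511 against 190 CPM) were higher in young ILC2s, and *P2rx7* (40.04 against 5.96 CPM) and *Nr4a1* (381 against 140 CPM) in old ones. The integrin gene *Itgae* (2.74 against 45.2 CPM in young, 2.99 against 21.6 CPM in old) was lower in both, as were *Xcl1* (18.8 against 82.9 CPM) and *Prdm1* (11.9 against 27.1 CPM) in young and *Jaml* (2.39 against 20.6 CPM) and *Itga1* (5.98 against 26.1 CPM) in old.

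The rest of the S1P and G protein genes differed in both directions, and their counts are to be read against the 14.8% and 5.7% of all genes higher and lower in young and the 8.51% and 11% in old. Of the other Rgs genes 7 were measured in young, 2 higher and 2 lower in ILC2s, and 8 in old, 2 higher and 4 lower. *Rgs18* stood at 72.0 CPM in young ILC2s, at 50.8 CPM in old ILC2s and at 3 and 4 UMIs in CD4 T cells, log2 ratios of 3.99 (2.44 to 6.28) and 6.41 (5.004 to 8.32), and *Rgs12* had 25.6 CPM in young ILC2s and no UMI in 118 CD4 T cells, at least 5.66-fold higher. *Rgs16* was the reverse, at 0.548 and 5.98 CPM in ILC2s and 75.4 and 185 CPM in CD4 T cells, as was *Rgs10* in young, at 59.7 and 265 CPM. *S1pr2*, a receptor that restrains migration, had 7.81 CPM in young ILC2s and 1 UMI in young CD4 T cells, a log2 ratio of 2.37 (-0.16 to 7.70), and *S1pr3* had no UMI in ILC2s. Among G proteins and regulators 7 were measured each time, with *Rac2* lower in both (517 against 1081 CPM in young, 507 against 1226 CPM in old) and *Gnai2* in old (386 against 799 CPM). Of the genes of S1P synthesis, breakdown and transport, 1 of 4 was past 2-fold in young, the S1P lyase gene *Sgpl1* at 21.4 CPM in ILC2s and 7 UMIs in CD4 T cells (log2 ratio 1.02, -0.060 to 2.36), and 0 of 3 in old.

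Between the libraries none of the 6 genes measured in ILC2s passed 2-fold in either direction, where 2.32% of 9135 genes were at least 2-fold higher and 3.65% lower in old. *S1pr1* and *S1pr5* had too few UMIs there for such a ratio. The widest ratios were 0.81 for *Klrg1* and -0.39 (-0.46 to -0.32) for *Rgs1*, and *S1pr4* at 0.13 (-0.26 to 0.50) and *Rgs2* had intervals that held 0. Of the companion lists, *Xcl1* (18.8 and 92.0 CPM), *Cd101* (6.16 and 16.1 CPM) and *Tcf7* (7.53 and 24.5 CPM) were past 2-fold upward in old ILC2s. *Apom*, a carrier of S1P in plasma, was past it downward (10.8 and 3.59 CPM, on 79 and 6 UMIs). Summed PT transcripts were at 446 CPM in young and 174 CPM in old ILC2s, and their part in the *Apom* ratio was not tested. NK cells also had 0 of 7 members past 2-fold, against 1.23% of 5024 genes higher and 3.22% lower.

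CD4 and CD8 T cells had less *S1pr1* and *Klf2* in the old library. In CD4 T cells the log2 ratio of old over young was -0.88 (-1.14 to -0.60) for *S1pr1* and -0.47 (-0.58 to -0.35) for *Klf2*, and in CD8 T cells -0.91 (-1.26 to -0.55) and -0.75 (-0.85 to -0.64). Among cells with *Xist* only, *Klf2* was at -1.06 in CD4 and -1.34 in CD8 T cells. Other transcripts differed between the same sums. In CD4 T cells *Gzma* and *Eomes*, genes of cytotoxic cells, went from 1 and 3 UMIs to 203 and 140 CPM and *Prf1*, the perforin gene, from 21.1 to 93.7 CPM, and summed PT transcripts were at 431 CPM in young and 184 CPM in old CD4 T cells and at 407 and 150 CPM in CD8 T cells. The CD8 gate had *Trdc* at 156 CPM in young and 13.7 CPM in old, with a *Trac* UMI in 85.1% and 94.9% of its cells. The part of these differences in the ratios was not tested. *Rgs1* was on the other side in CD4 and CD8 T cells, at 0.51 (0.37 to 0.66) and 0.57 (0.45 to 0.69). *Cd69* was at 0.39 in CD4 and -0.14 (-0.27 to -0.020) in CD8 T cells. B cells had *S1pr1* at -0.97 (-1.34 to -0.61), *Rgs2* at -0.78 (-0.91 to -0.65) and *Klf2* at -0.36 (-0.45 to -0.26). In CD4 T cells the recirculation genes *Ccr7* (425 in young and 69.3 CPM in old) and *Lef1* (265 and 64.7 CPM) were also past 2-fold lower, 2 of 9 with a median of -0.71 against 0.091 over all genes, where 2.43% of genes were lower by that much. Of the residency list 1 of 12 was higher and 2 were lower, and of the other Rgs genes 2 of 6 were higher and 1 lower, against 7.86% of genes higher. Upward were *Bhlhe40* (258 and 556 CPM), *Rgs16* (75.4 and 185 CPM), the S1P lyase gene *Sgpl1* (10.6 and 22.4 CPM), *Rgs9* (2 and 66 UMIs, log2 ratio 1.71, -0.20 to 4.78) and *S1pr2* (1 and 67 UMIs, log2 ratio 2.73, 0.20 to 8.05), and downward *P2rx7* (21.1 and 5.96 CPM), *Itgae* (45.2 and 21.6 CPM) and *Rgs10* (265 and 96.7 CPM).

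**Figure D3:**
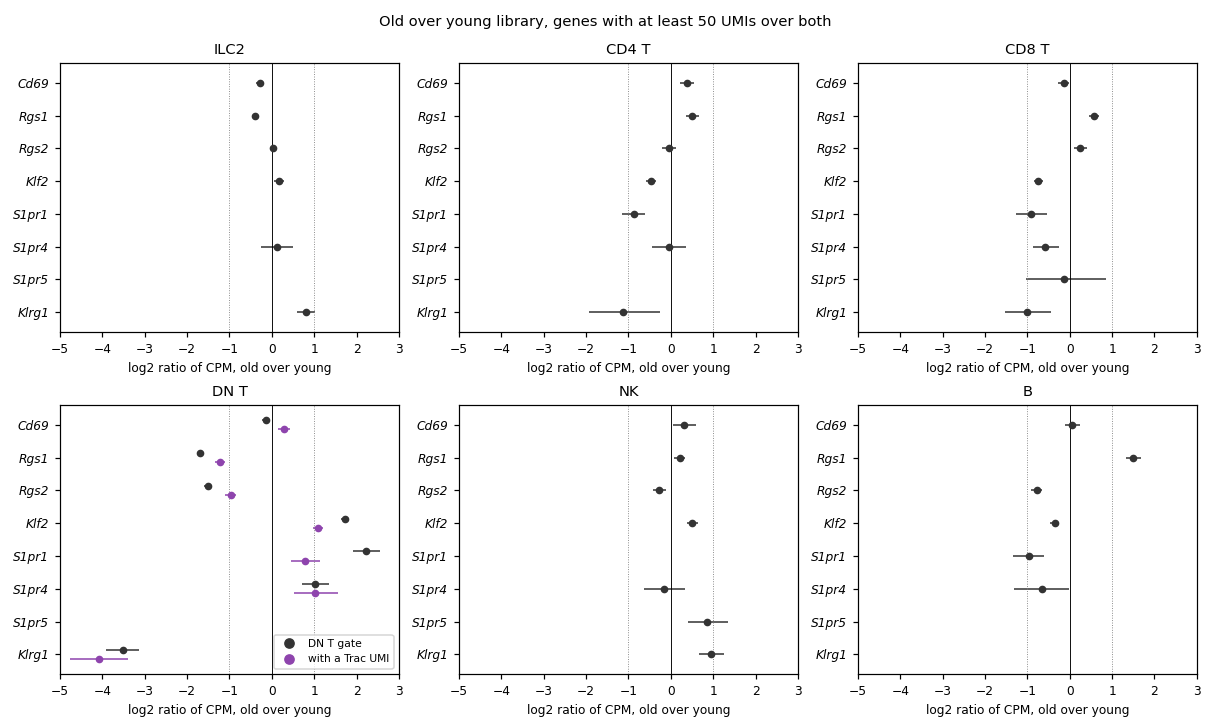
Log2 ratio of CPM in the old over the young library for each gene with at least 50 UMIs over both, 1 panel per class, with exact binomial 95% intervals and dotted lines at 2-fold. DN T cells (black) and those with a *Trac* UMI (purple) had *Klf2*, *S1pr1* and *S1pr4* to the right and *Rgs1*, *Rgs2* and *Klrg1* to the left, and all points of ILC2s and NK cells lay within 2-fold.

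DN T cells went the other way. In the whole gate *S1pr1* was higher in old by a log2 ratio of 2.22 (1.90 to 2.56), *Klf2* by 1.73 (1.63 to 1.82) and *S1pr4* by 1.02 (0.71 to 1.34), from 52.3 to 106 CPM. By contrast *Rgs1* (1551 and 482 CPM) differed by -1.68 (-1.76 to -1.61), *Rgs2* (1208 and 423 CPM) by -1.51 (-1.59 to -1.44) and *Klrg1* (127 and 11.1 CPM) by -3.52 (-3.90 to -3.14). These were 3 of 7 measured genes upward and 3 downward, where 11.5% of 9280 genes were higher and 8.12% lower. The young gate held the ILC2-like transcripts described above and 18137 summed CPM of the immediate early list, against 8975 in the old. The cells with a *Trac* UMI held 9292 and 8646. There *S1pr1* had 120 (94.9 to 150) and 208 (197 to 219) CPM, a log2 ratio of 0.79 (0.46 to 1.14), *Klf2* 847 (777 to 921) and 1804 (1771 to 1837) CPM, or 1.09 (0.97 to 1.22), and *S1pr4* 53.1 (36.8 to 74.2) and 107 (99.4 to 116) CPM, or 1.01 (0.52 to 1.56). *Rgs1* had 1120 (1040 to 1205) and 477 (460 to 494) CPM, or -1.23 (-1.35 to -1.11), *Rgs2* 803 (735 to 875) and 409 (393 to 425) CPM, or -0.97 (-1.11 to -0.84), and *Klrg1* 81.2 (60.7 to 107) and 4.84 (3.29 to 6.86) CPM, or -4.07 (-4.76 to -3.40). The signs were those of the whole gate for these 6 genes, with smaller ratios except for *S1pr4*, which was nearly the same, and *Klrg1*, which was larger. The *Klrg1* ratio rested on few cells, 52 UMIs in 14 of 137 young and 31 UMIs in 19 of 1372 old cells. *Cd69* was at -0.15 (-0.22 to -0.073) in the gate and 0.29 (0.15 to 0.42) with *Trac*. By count, *S1pr4* and *Klf2* passed 2-fold upward and *Rgs1* and *Klrg1* downward, against 12.7% and 4.81% of 8634 genes.

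Set against CD4 T cells of the same library, DN T cells with a *Trac* UMI had the 6 ratios on opposite sides of 0. *S1pr1* was at -0.76 (-1.18 to -0.34) in young and 0.91 (0.78 to 1.04) in old, *Klf2* at -0.27 (-0.44 to -0.11) and 1.29 (1.24 to 1.34), *Rgs1* at 0.84 (0.66 to 1.01) and -0.91 (-0.97 to -0.84), and *Rgs2* at 0.52 (0.33 to 0.72) and -0.41 (-0.48 to -0.34). Only *Cd69* was above CD4 T cells both times, at 0.51 (0.30 to 0.71) and 0.41 (0.35 to 0.46). Past 2-fold were *Klrg1* in young, 1 of 7 measured against 2.32% of 3667 genes higher and 1.06% lower, and in old *Klf2* upward, against 6.03% of 9779 genes, and *Klrg1* downward, against 4.96%. The young *Klrg1* value rested on 52 UMIs in 14 DN T cells, against 16 UMIs in 5 CD4 T cells. Of the recirculation list 5 of 9 genes were higher and 2 lower in old DN T cells with *Trac* than in CD4 T cells, with a median of 1.15 against 0.066 over all genes, and of the residency list 0 of 12 were higher and 5 lower, with a median of -0.86. In young the recirculation list had 1 of 8 higher and 0 lower (median -0.025) and the residency list 2 of 6 higher and 0 lower (median 0.64), against 0.020 over all genes. In the old library *Cxcr6* had 60.7 CPM in DN T cells with *Trac* against 222 CPM in CD4 T cells, a gene singled out after its values were seen. Between the libraries *Ccr7* in DN T cells with *Trac* had 244 CPM (young) and 159 CPM (old).

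Other transcripts moved with the DN comparison. *Eomes*, a T-box factor of cytotoxic cells, was at 25 CPM in young DN T cells with *Trac* and at 544 CPM in old ones, and it was also higher in old CD4 and CD8 T cells, the latter with 50.8 and 215 CPM. *Zbtb16*, a factor of innate-like lymphocytes, had 32.8 CPM (21 UMIs) in young and 2.50 CPM in old DN T cells with *Trac*, and *Il7r*, the interleukin 7 receptor gene, 351 and 115 CPM. In the old library 936 of the 1372 cells had an *Eomes* UMI. Those had 327 CPM of *Rgs1* against 895 CPM in the 436 cells without, a log2 ratio of -1.45 (-1.55 to -1.35), and 223 against 166 CPM of *S1pr1*, or 0.42 (0.23 to 0.62). The *Rora* level of 316 CPM in young DN T cells with *Trac* was above the 61.0 CPM of the old ones. *Cd40lg* had 102 and 32.1 CPM in the same cells. The part of these transcripts in the DN ratios was not tested.

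The pair of *Cd69* and *S1pr1* was then read cell by cell, with each cell thinned to 2000 UMIs. Of 1263 young ILC2s 74.1% had *Cd69* only, 0 had *S1pr1* and 25.9% had neither, and of 291 old ILC2s 65.3% had *Cd69* only and 0.344% *S1pr1* only. Of young CD4 T cells 33.3% had *Cd69* only, 14.04% *S1pr1* only and 16.7% both, and of old CD4 T cells 50.8%, 5.49% and 9.35%. Old DN T cells with *Trac* had *Cd69* only in 46.8%, *S1pr1* only in 9.20% and both in 23.2%. T cells thus held cells with both transcripts. Since no thinned young ILC2 had *S1pr1* at all, none could have both, and at full depth 4 of the 5 *S1pr1* UMIs of young ILC2s were in cells with a *Cd69* UMI. NK cells had neither in 62.7% of young and 63.1% of old cells.

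**Figure D4:**
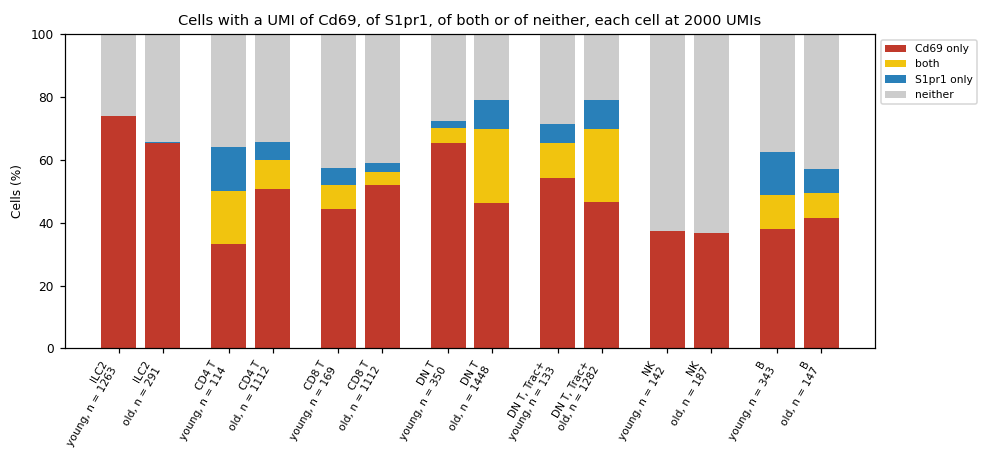
Percent of cells, thinned to 2000 UMIs each, with UMIs of *Cd69* only, both genes, *S1pr1* only or neither, as stacked bars for 7 cell groups in the young and the old library. ILC2 bars hold *Cd69* only or neither apart from 0.344% of old cells, and the bar with the most cells of both genes is that of old DN T cells, at 23.3%.

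Within classes *S1pr1* went with *Klf2* and away from *Rgs1*. Young CD4 T cells with an *S1pr1* UMI had 1486 CPM of *Klf2* and those without had 626 CPM, a log2 ratio of 1.25 (1.01 to 1.48). The ratio was 1.09 (1.01 to 1.17) in old CD4 T cells, 0.41 (0.22 to 0.60) in young and 1.60 (1.51 to 1.68) in old CD8 T cells and 0.71 (0.65 to 0.76) in old DN T cells with *Trac*. *Rgs1* was lower in the same cells, with 435 against 791 CPM in young CD4 T cells and log2 ratios of -0.86 (-1.17 to -0.56) there, -0.66 (-0.74 to -0.58) in old CD4 T cells, -1.80 (-2.13 to -1.48) in young and -1.65 (-1.78 to -1.53) in old CD8 T cells. In young B cells the ratio for *Klf2* was 0.18 (0.069 to 0.30). Cells with an *S1pr1* UMI were also deeper, with a median of 5105 against 4364 UMIs in young CD4 T cells, and CPM takes up depth only on average. *Cd69* did not separate *S1pr1* in CD4 T cells of the young library, which had 198 CPM of *S1pr1* with and 221 CPM without a *Cd69* UMI (log2 ratio -0.15, -0.73 to 0.46), and in old CD4 T cells the ratio was 0.40 (0.079 to 0.74).

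CD4 T cells with a *Foxp3* UMI, the marker of regulatory T cells, had less *Klf2* than those without, 169 against 1231 CPM in young (16 and 102 cells) and 264 against 778 CPM in old (72 and 1073 cells). They also had less *Cd69*, with log2 ratios of -0.97 (-1.49 to -0.48) and -0.83 (-1.05 to -0.63), and more *Rgs1*, with 0.45 (0.11 to 0.77) and 0.56 (0.44 to 0.67). NK cells with a *Klrg1* UMI had more *S1pr5* than those without, 148 against 34.5 CPM in young and 164 against 73.7 CPM in old, with less *Cd69*, 111 against 293 CPM and 244 against 378 CPM.

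Within ILC2s *S1pr1* and *S1pr5* had too few UMIs to split. *Cd69* was higher in ILC2s with a *Klf2* UMI than in those without, at 1393 (1356 to 1431) against 1073 (1039 to 1108) CPM in young, a log2 ratio of 0.38 (0.32 to 0.44), and 1138 against 860 CPM in old, or 0.40 (0.26 to 0.55). *Klf2* and *Rgs1* differed with the type 2 cytokine genes. The 364 young ILC2s with an *Il5* or *Il13* UMI had 244 CPM of *Klf2* against 423 CPM in the other 967, a log2 ratio of -0.79 (-0.93 to -0.66), and the old ones 362 against 423 CPM, -0.23 (-0.54 to 0.073). *Rgs1* in the same split was at 0.15 (0.097 to 0.21) in young and 0.66 (0.51 to 0.81) in old, and *Cd69* at -0.25 (-0.32 to -0.19) and 0.068 (-0.11 to 0.25). A *Klrg1* UMI did not go with a difference in *Cd69* of old ILC2s, 1013 against 1018 CPM, and in young ones the difference was 1325 against 1205 CPM.

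Over the 12 sums of 6 classes in 2 libraries, the gene most like each member was sought among 7250 genes by Pearson's r of log2(CPM + 1). These were *4932438H23Rik* for *Cd69* (r = 0.942), *Gm8369* for *S1pr1* (0.943), *Atp1b3* for *S1pr4* (0.969), *Cd244* for *S1pr5* (0.985), *Ezr* for *Klf2* (0.907), *Pdia3* for *Rgs1* (0.951), *Ccdc9* for *Rgs2* (0.954) and *Smad3* for *Klrg1* (0.970). Next in rank were *Tmem9* and *Elp3* for *Cd69*, *Ifi27l2a* and *Mgst2* for *S1pr1*, *S100a10* and *Pik3r5* for *S1pr4*, *Chsy1* and *Mtmr1* for *S1pr5*, *A430078G23Rik* and *Rnf111* for *Klf2*, *Fgl2* and *Fnbp1* for *Rgs1*, *Chmp1b* and *Serinc3* for *Rgs2*, and *Krt83* and *Samm50* for *Klrg1*. *Cd244*, an NK cell receptor gene, had the highest of these values. Among the members themselves the lowest r was -0.753 between *S1pr1* and *Klrg1*, then -0.720 between *Cd69* and *S1pr5*. It was -0.692 between *S1pr1* and *Rgs1* and -0.677 between *Klf2* and *Rgs1*. The highest r was 0.645 between *Rgs1* and *Klrg1*. It was 0.334 between *S1pr1* and *Klf2* and 0.213 between *S1pr1* and *Cd69*. The sums share 2 libraries and their base composition, so these values are descriptions.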

How the data were processed

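Single cells from pooled kidneys were profiled in 2 libraries, 1 young and 1 old. The deposited files hold UMI counts per gene and barcode, which the authors made with Cell Ranger (version 3 per the submitters' processing notes) on mm10, and no cell type annotation or sample table was used. A barcode was kept if it had 200 genes or more and no more than 20% of its UMIs from mitochondrial genes, which left 11429 of 15076 young (median 7881 UMIs) and 10232 of 12622 old (median 6933 UMIs). Scrublet (Scanpy 1.11.5) marked 332 and 270 cells as doublets, which were kept and left out in an alternative. Cells were gated by marker UMIs, with exclusions for other lineages, and cells meeting more than 1 gate (12 and 11) stayed unassigned. Sums, exact Poisson, Clopper-Pearson and binomial 95% intervals were computed with Python 3.11.15, NumPy 2.4.6, SciPy 1.17.1 and pandas 2.3.3, on code tested on simulated data. A sum of 0 UMIs was counted as 3 in a bound. Counts past 2-fold used genes with at least 50 UMIs over both sums. From each list up to 3 genes per direction past 2-fold were named, for old over young in ILC2s and CD4 T cells and for ILC2s over CD4 T cells. The members and lists were chosen with earlier results of these data known, and the gate thresholds were set after the data were seen. Some genes of the lists and gates are not reported here by name.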

Additional observations from a re-analysis of the deposited data

Results flagged for a closer look

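Several ratios of old over young were past 2-fold in 1 class while the interval of another class lay wholly on the other side of 0. With 1 library per age, none of these differences between classes was tested. The DN values here are of the whole gate, and with a *Trac* UMI asked *S1pr1* (0.79) and *Rgs2* (-0.97) were no longer past 2-fold, while *Klf2* was at 1.09, *S1pr4* at 1.01, *Rgs1* at -1.23 and *Klrg1* at -4.07. The last of these rested on 52 young UMIs in 14 cells. On the log2 scale *S1pr1* was at 2.22 in DN T cells against -0.88 in CD4 T cells, -0.91 in CD8 T cells and -0.97 in B cells. *Klf2* was at 1.73 in DN T cells against -0.47, -0.75 and -0.36 in the same classes, and *S1pr4* at 1.02 against -0.58 in CD8 T cells and -0.65 in B cells. *Rgs1* was at -1.68 in DN T cells against 0.51 in CD4 T cells, 0.57 in CD8 T cells and 0.21 in NK cells, and at 1.498 in B cells against -0.39 in ILC2s. *Rgs2* was at -1.51 in DN T cells against 0.25 in CD8 T cells, and the CD8 value was -0.38 among cells with *Xist* only. *Klrg1* was at -1.13 in CD4, -1.001 in CD8 and -3.52 in DN T cells against 0.81 in ILC2s and 0.96 in NK cells. Among cells with *Xist* only the ILC2 value was -0.045, so its contrast with T cells was not one of opposite signs there. In the same cells CD4 and CD8 T cells were at -2.21 and -2.34. The CD4 value was -0.19 among cells with at least 4000 UMIs.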

How the results depend on the processing

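No paired analysis was possible because there was 1 library per age. The log2 ratio of *Cd69* in ILC2s, old over young, was -0.29 and became -0.18 without the lineage exclusions, 0.060 among cells with *Xist* and no Y-linked UMI, and -0.37 among cells with Y-linked UMIs and no *Xist*. *Cd69* in ILC2s over CD4 T cells was 1.27 in young and became 1.09 as a mean of the CPM of each cell and 0.90 in the cells with *Xist* only, and in old it was 0.59 and became 0.84 in those cells. The cause of these shifts was not tested. The other 61 values of this kind moved by less than their interval or, for counts, less than 1.5 times. *S1pr1* of young ILC2s over CD4 T cells had no value in the cells with *Xist* only, where ILC2s held 0 UMIs. Of 41 gene and class pairs with enough UMIs, 9 were past 2-fold between the libraries, and between 7 and 10 over the alternatives with the same 41 pairs. It was 11 of 36 pairs in the cells with *Xist* only and 8 of 39 in those with Y-linked UMIs only. Asking for a *Trac* UMI, an alternative chosen after seeing the data, moved *Cd69* in DN T cells from -0.15 to 0.29 and *S1pr1* from 2.22 to 0.79, and with a stricter gate *Cd69* in NK cells moved from 0.32 to 1.29. Among single genes and classes 83 values moved beyond their interval and 356 did not, and no value past 2-fold changed sign. Depth limits the receptors most: 3 UMIs equal 0.411 CPM in young ILC2s, 1.79 CPM in old ILC2s and 4.52 CPM in young CD4 T cells.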

Other observations

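Outside the lymphocyte gates, macrophages or monocytes (270 young, 313 old) had *Rgs2* at 1238 CPM (young) and 639 CPM (old) and *Rgs1* at 595 and 684 CPM. *S1pr5* had 37 UMIs in the young and 80 UMIs in the old of these cells. In PT cells *Klf2* stood at 57.2 CPM (young) and 24.0 CPM (old). Among old CD8 T cells, the 78 with a *Klrg1* UMI had 68.2 CPM of *S1pr5* against 5.74 CPM in the other 1074, a log2 ratio of 3.57 (2.93 to 4.21). No explanation was tested for these values.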
